A study of Mus musculus with 26 samples.

Results

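Bone morphogenetic protein 4 (Bmp4), a secreted ligand, and 9 genes known as direct or feedback targets of BMP signalling were followed in 26 RNA samples from mouse, each on 1 Affymetrix Mouse Exon 1.0 ST array. The targets were the inhibitors of DNA binding Id1, Id2, Id3 and Id4, the homeobox genes Msx1 and Msx2, and the feedback inhibitors Smad6, Smad7 and Bambi. Members were the probe sets whose only gene symbol was 1 of these 10 symbols. They were 66 of the 306069 probe sets with a single symbol, and 10 of 21757 gene symbols. Each gene value is the median over the brighter 50% of its probe sets, ranked by their mean over the 26 arrays, in log2 units, so that a difference of 1 is a 2-fold difference. Of the 10 genes, 9 had at least 4 probe sets and were tested, among 18341 genes tested in all. Msx1 has 3 probe sets and is described without a test.

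The labels describe the RNA as coming from mouse embryonic stem cells and embryoid bodies, abbreviated ES and EB, and name every sample an embryoid body cell. They give 2 strains and no treatment, genotype, time, age or sex. The 14 arrays titled ES1 to ES14 are labelled 129S2/SvPas, and the 12 arrays titled ES15 to ES26 are labelled C57BL/6. RNA was amplified in 2 rounds, per the labels' protocols, and no source says whether samples were separate cultures or animals; the p-values below therefore reflect the spread among these arrays, part of which may be technical. No batch is recorded, and titles run in the order of the strains, so strain and an unrecorded batch cannot be told apart. The members are also described over 5 runs of consecutive titles, ES1 to ES12, ES13 and ES14, ES15 to ES20, ES21 to ES24, and ES25 and ES26. The runs are not in the labels and were chosen with results of these data known, so values across them are a description without a test.

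BMP ligands bind paired type I and type II receptors, which phosphorylate Smad1, Smad5 and Smad9. These join Smad4, enter the nucleus and switch on target genes, among them the Id genes, whose proteins pair with E proteins and keep them from binding DNA. Smad6 and Smad7 are inhibitory Smads that block the receptors and the signal Smads, and Bambi is a receptor-like membrane protein without kinase activity, so that these targets limit the signal that induces them. In mouse embryonic stem cells BMP4 acting through Id proteins is known to support self-renewal together with LIF, while in the embryo BMP4 is needed for mesoderm and for blood and vessel formation.

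The label of embryoid body cells was checked against marker genes. In ES1 to ES12 the mean of 10 measured granulocyte and monocyte markers lay between 11.56 and 12.14, against 5.34 to 6.76 in ES13 to ES26, and 9 of the 10 markers were higher in every array of ES1 to ES12 than in any other; Csf1r overlapped. The mean of 8 pluripotency markers lay between 5.47 and 5.97 in ES1 to ES12, between 10.81 and 11.24 in ES21 to ES24, and between 7.20 and 8.47 in the remaining arrays. Of these markers 6 were lower in every array of ES1 to ES12 than in any other, while Esrrb and Klf4 overlapped. Klf4 had a higher median in ES1 to ES12 (7.79) than in ES13 and ES14 (6.76). The labels of ES1 to ES12 do not mention blood cells, and these 12 arrays stood apart from the others. ES13 and ES14, labelled 129S2/SvPas, had granulocyte and monocyte means of 5.50 and 5.75, within the 5.34 to 6.76 of the arrays labelled C57BL/6. In bulk RNA, fewer cells of a type and less RNA per cell cannot be told apart.

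Promoters were set side by side because several members moved together. RefSeq (GRCm38.p6) windows of 300 bases, from 250 before to 50 after the transcription start, were matched by symbol for 7 of the 10 members (Bmp4, Id2, Id3, Id4, Msx1, Msx2 and Smad6). Both strands were searched for GGCGCC, a GC-rich Smad site described in Id promoters, CAGAC, the short Smad-binding box, and GTCTAGAC, its palindromic form; no match of one overlapped a match of another in these windows. GGCGCC was present in Id2, 231 to 226 bases before the start, and in Id4, 148 to 143 bases before it. CAGAC was present in Id3 at 167 to 163 and, on the other strand as GTCTG, at 68 to 64 bases before the start. GTCTAGAC was present in Smad6, from 4 bases before the start to 4 after it. Of 32851 RefSeq windows of the same length, 11.87% held GGCGCC, 49.59% CAGAC and 0.2131% GTCTAGAC. The Id stretches, which belong to genes whose values differed in pattern across the arrays, are the 250 bases before the start, and the Smad6 stretch is 30 bases around its match; capitals mark the motifs. Id3 is from chr4:136143572-136143821 (plus strand), Id2 from chr12:25096093-25096342 (minus strand), Id4 from chr13:48260866-48261115 (plus strand) and Smad6 from chr9:64022045-64022074 (minus strand), printed 5′ to 3′.
Id3: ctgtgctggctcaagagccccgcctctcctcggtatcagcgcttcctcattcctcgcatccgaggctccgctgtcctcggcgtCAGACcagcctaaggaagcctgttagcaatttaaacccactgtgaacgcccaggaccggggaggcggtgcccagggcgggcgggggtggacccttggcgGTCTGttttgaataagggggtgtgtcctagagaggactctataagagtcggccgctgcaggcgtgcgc
Id2: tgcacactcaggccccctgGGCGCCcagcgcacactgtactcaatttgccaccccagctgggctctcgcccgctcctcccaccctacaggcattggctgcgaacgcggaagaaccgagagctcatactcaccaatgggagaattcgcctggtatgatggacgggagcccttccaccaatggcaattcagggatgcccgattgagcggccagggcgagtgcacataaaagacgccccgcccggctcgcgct
Id4: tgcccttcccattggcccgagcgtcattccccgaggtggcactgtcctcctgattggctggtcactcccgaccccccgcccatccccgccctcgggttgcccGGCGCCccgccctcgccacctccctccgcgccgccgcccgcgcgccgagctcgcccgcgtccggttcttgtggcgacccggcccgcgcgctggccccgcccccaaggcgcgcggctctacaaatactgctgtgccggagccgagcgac
Smad6: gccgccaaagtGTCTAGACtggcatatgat
A match is a description of letters and not a binding site. GC content of these 250 bases was 62.8% in Id2, 62.8% in Id3 and 75.6% in Id4, against a median of 52.4% over the same stretch of all windows.

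Between the strain labels, 6 of the 9 tested members were lower in 129S2/SvPas and 0 were higher. Of all 18341 genes tested, 22.1% were lower and 21.1% higher by the same test (limma, Benjamini-Hochberg adjusted p below 0.05), so a call in either direction was made for 43.2% of genes. The median difference was -1.25 over the 9 members and -0.0015 over all genes tested. The lower members were Bmp4, Id3, Msx2, Smad6, Smad7 and Bambi. By this gene value Id1, Id2 and Id4 did not pass the threshold. For Id4 this depended on the summary, since the median over all its probe sets was called lower, as given below. Without an adjustment the member counts at p below 0.05 were also 6 lower and 0 higher, and a rank sum test gave 6 and 0. Of all 18341 genes, 9173 had an unadjusted p below 0.05 in either direction. The rank sum test called 3875 of them lower and 3864 higher after adjustment.

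**Figure D1:**
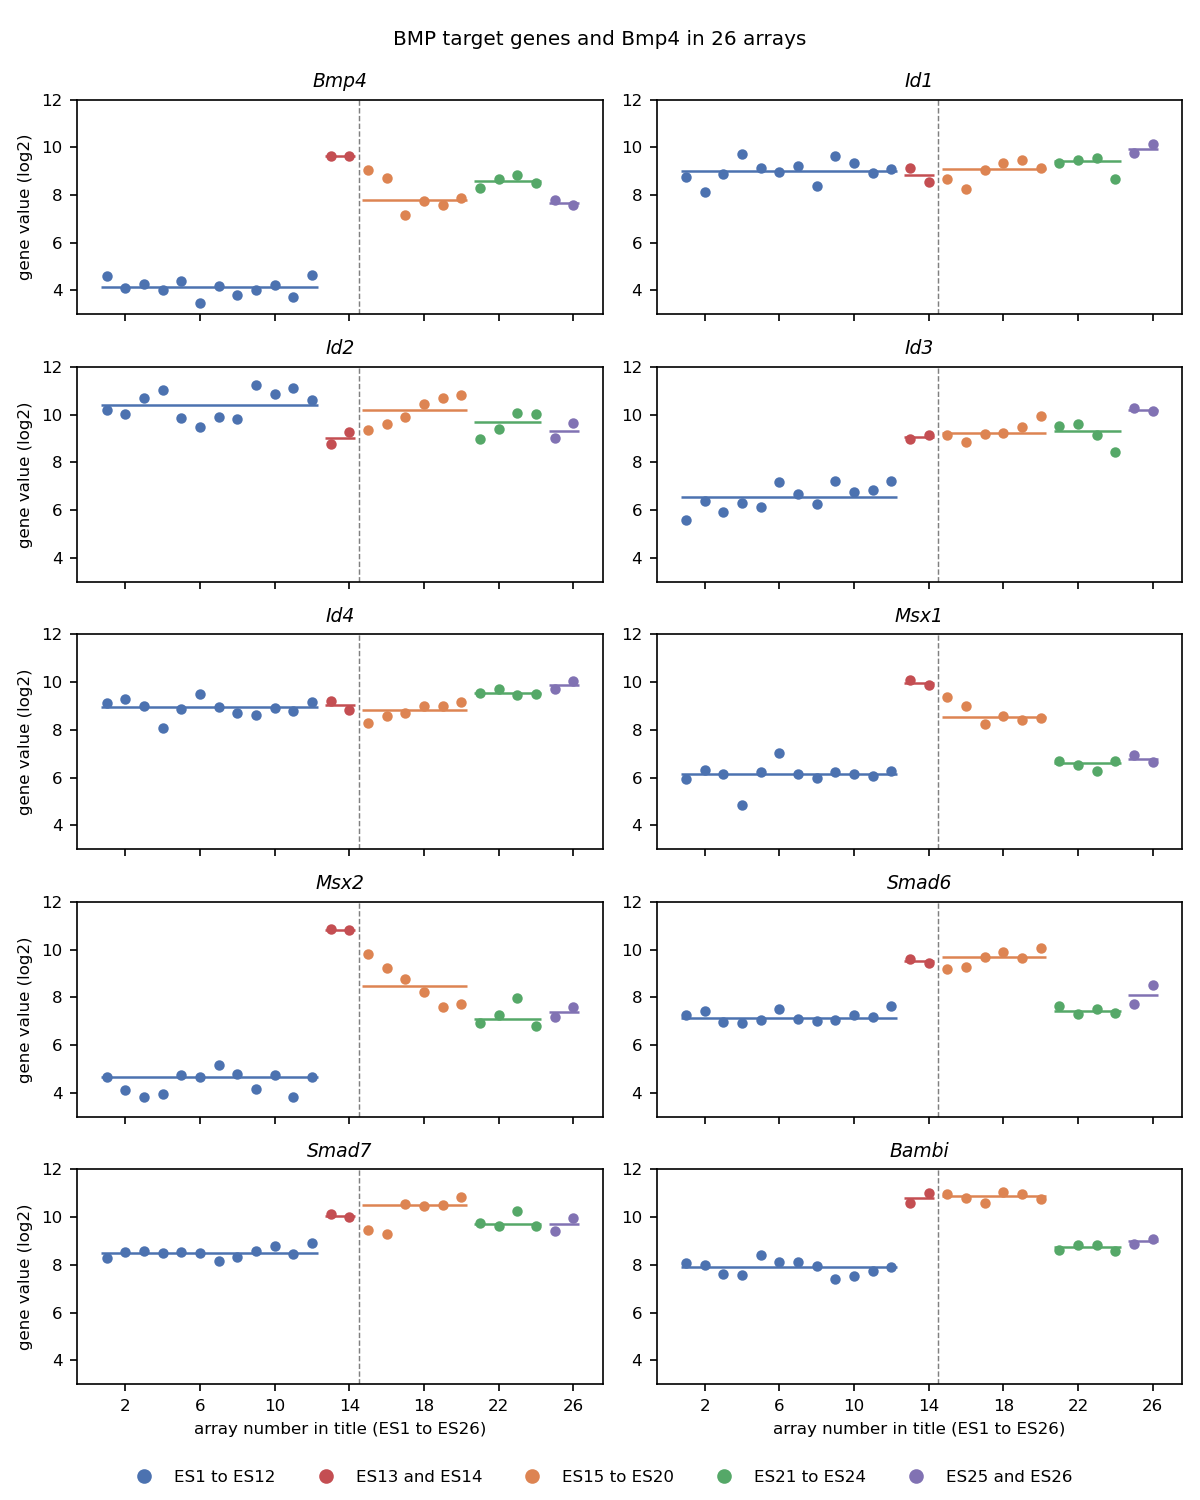
Gene values (log2, y axis) of Bmp4 and the 9 targets in each array, ordered by the number in its title (x axis); each point is 1 array, colours are the title runs, horizontal lines are run medians and the dashed line separates the strain labels. Bmp4 lies between 3.49 and 4.64 in ES1 to ES12 and between 7.14 and 9.65 in the other arrays, while Id1 lies between 8.13 and 10.12 throughout.

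Bmp4, the ligand, had a gene value between 3.49 and 4.64 in ES1 to ES12, with a median of 4.13. It was 9.65 in ES13 and 9.63 in ES14, and 9.05, 8.72, 7.14, 7.72, 7.57 and 7.87 in ES15 to ES20. In ES21 to ES24 it was 8.29, 8.65, 8.84 and 8.50, and in ES25 and ES26 it was 7.78 and 7.57. The 12 arrays ES1 to ES12 were all below every other array, and the highest were the other two arrays with the same strain label. By label the mean was 4.91 ± 2.03 (SD, n = 14) for 129S2/SvPas and 8.14 ± 0.61 (SD, n = 12) for C57BL/6. The difference was -3.23 ± 0.58 (SE; limma adjusted p = 5.55e-05).

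In the order of run medians for Bmp4, ES1 to ES12 came first, then ES25 and ES26, ES15 to ES20, ES21 to ES24, and ES13 and ES14. The range of ES15 to ES20 overlapped with that of ES25 and ES26 and with that of ES21 to ES24. ES1 to ES12 did not overlap with ES25 and ES26. ES13 and ES14 lay above ES21 to ES24, by 1.07 in the median, with no overlap.

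Of the 4 Id genes, Id3 was the one whose gene value passed the threshold between the labels. Id3 lay between 5.57 and 7.23 in ES1 to ES12, with a median of 6.53. It was 8.96 in ES13, 9.14 in ES14, and 9.16, 8.83, 9.21, 9.24, 9.50 and 9.93 in ES15 to ES20. It was 9.53, 9.63, 9.14 and 8.46 in ES21 to ES24, and 10.29 and 10.14 in ES25 and ES26. ES1 to ES12 were again below all other arrays, and ES25 and ES26 were above all of them. The label means were 6.90 ± 1.04 (SD, n = 14) and 9.42 ± 0.53 (SD, n = 12), and the difference was -2.52 ± 0.32 (SE; limma adjusted p = 6.85e-07). All 4 Id3 probe sets moved widely, with run medians spanning 3.36 to 4.88.

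Id1, often used as a readout of BMP signalling, had medians between 8.84 in ES13 and ES14 and 9.94 in ES25 and ES26. Its values in ES1 to ES12 ran from 8.13 to 9.72 (median 9.02), in ES15 to ES20 from 8.24 to 9.46 (median 9.09), and in ES21 to ES24 they were 9.34, 9.48, 9.54 and 8.67. ES25 at 9.76 and ES26 at 10.12 were the highest arrays, and the ranges of the other neighbouring runs overlapped. The difference between labels was -0.24 ± 0.18 (SE; limma adjusted p = 0.301).

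Id2, which is expressed in several blood and neural lineages, had its highest run median where Id3 had its lowest. It lay between 9.49 and 11.26 in ES1 to ES12, with a median of 10.40. ES13 and ES14 were lowest in median, at 8.77 and 9.27. In ES15 to ES20 it was 9.36, 9.60, 9.92, 10.44, 10.70 and 10.82, in ES21 to ES24 8.97, 9.38, 10.09 and 10.04, and in ES25 and ES26 9.00 and 9.67. The ranges of all neighbouring runs in this order overlapped. The difference between labels was 0.37 ± 0.26 (SE; limma adjusted p = 0.263); without ES13 and ES14 it was 0.57 and passed (limma adjusted p = 0.0437), in a fit that called 25.2% of all genes higher and 25.2% lower.

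The Id4 gene value ranged from 8.09 to 9.49 over ES1 to ES12 and from 8.28 to 10.05 over ES13 to ES26, with a difference between labels of -0.29 ± 0.17 (SE; limma adjusted p = 0.172). This value hides a split among the 8 probe sets annotated to Id4, each of which covers a short stretch of sequence. The 4 dimmer probe sets (4407283, 4846125, 5297718 and 5559201) had a median per array between 3.88 and 5.15 in ES1 to ES12, with a middle value of 4.41. Their median was 7.12 in ES13, 5.91 in ES14, between 6.17 and 8.02 in ES15 to ES20, between 8.22 and 9.53 in ES21 to ES24, 10.10 in ES25 and 10.68 in ES26. ES1 to ES12 were lower than every other array, ES25 and ES26 were higher than every other array, and the arrays between them covered the range from 5.91 to 9.53.

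Single Id4 probe sets made the split plain. Over ES1 to ES12 probe set 4846125 ranged from 3.58 to 5.43. It was 7.07 in ES13, 5.65 in ES14, and 5.70, 6.22, 7.10, 7.23, 7.62 and 7.80 in ES15 to ES20. It was 9.17, 9.57, 9.02 and 8.20 in ES21 to ES24, 10.22 in ES25 and 10.72 in ES26. The spans of run medians of the 4 dimmer probe sets were 5.94, 6.24, 5.93 and 5.76 in the order given above. Of the brighter probe sets, 4543362 had run medians spanning 0.32 and 5455268 had run medians spanning 0.41. The brighter 4333271 was instead high in ES13 to ES20, between 10.93 and 11.41, against 9.06 to 9.82 in ES1 to ES12 and 9.88 to 10.45 in ES21 to ES26. The fourth brighter one, 4853510, followed the dimmer ones over a narrower range, from 6.85 to 7.93 in ES1 to ES12 up to 10.31 and 10.80 in ES25 and ES26.

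**Figure D2:**
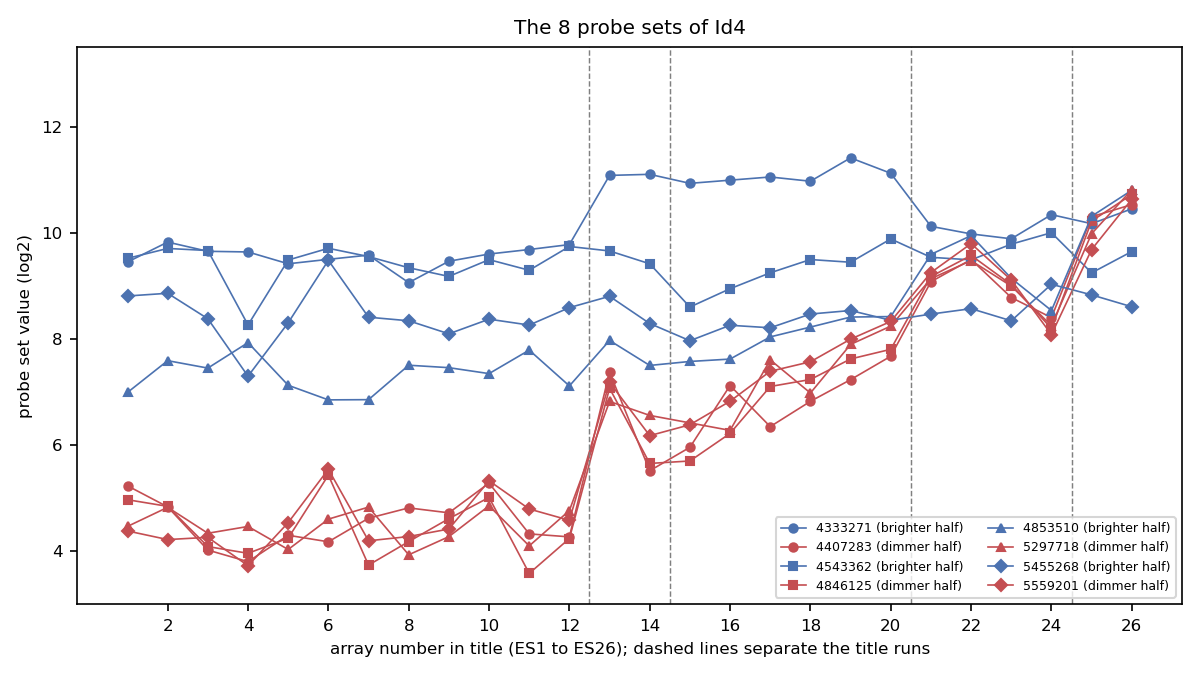
Values (log2, y axis) of the 8 Id4 probe sets in each array (x axis, number in the title); blue marks the brighter and red the dimmer 50% of the probe sets by mean over the 26 arrays, and dashed lines separate the title runs. The 4 dimmer probe sets lie together and their median is 3.88 to 5.15 in ES1 to ES12 and 10.10 and 10.68 in ES25 and ES26, while 2 brighter ones have run medians spanning 0.32 and 0.41.

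The departure of the dimmer Id4 probe sets from their gene was tested between the strain labels, after subtracting the gene value of the same array and requiring a difference beyond 1 log2 unit. Id4 was picked for this departure with results of these same data known. The gene value subtracted was built from the brighter Id4 probe sets alone. The p-values are therefore a description and no independent support for the split. Of 156023 probe sets that passed filters on dim genes and dim probe sets, 0.319% were lower and 0.341% higher in 129S2/SvPas. Of the 66 member probe sets 50 passed these filters; 4 of them were lower and 0 higher, and all 4 were the dimmer Id4 probe sets. With no minimum difference 20 of the 50 were lower and 10 higher, against 10.9% and 12.4% of all probe sets tested. With the minimum difference of 1 log2 unit kept but no adjustment, 5 of the 50 were lower and 0 higher at p below 0.05. Over all 156023 probe sets tested, 3327 had an unadjusted p below 0.05 in either direction. Relative to the gene, 4407283 differed by -3.05 (limma treat adjusted p = 0.00169), 4846125 by -3.24 (adjusted p = 0.000762), 5297718 by -3.27 (adjusted p = 0.000322) and 5559201 by -3.30 (adjusted p = 0.000126). With the median over all Id4 probe sets subtracted instead, these 4 were not called and the flat 4543362 and 5455268 were called higher, by 2.37 (adjusted p = 0.0101) and 2.36 (adjusted p = 0.0113). Without ES13 and ES14 the 4 remained called and Smad6 probe set 4850120 was called lower too, by a difference of -1.98 (adjusted p = 0.000148), against 1.11% lower and 1.1% higher of all probe sets tested. Without ES1 to ES12, with 2 arrays left for 129S2/SvPas, the 4 differences were -1.51, -1.67, -1.46 and -1.55 in the order above, and 0 of 50 member probe sets and 0% of all probe sets tested were called (0 of 50 at an unadjusted p below 0.05). The Id4 gene value itself, taken as the median over all 8 probe sets, was lower by a difference of -2.38 (limma adjusted p = 9.86e-07). The positions of the probe sets were not used here, so whether each lies in the Id4 transcript was not checked.

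Msx1 and Msx2 are homeobox transcription factors induced by BMP in limb, craniofacial and extraembryonic mesoderm. Msx2 lay between 3.80 and 5.16 in ES1 to ES12, with a median of 4.65. It was 10.86 in ES13, 10.81 in ES14, and 9.81, 9.24, 8.78, 8.21, 7.58 and 7.73 in ES15 to ES20. ES21 to ES24 were at 6.94, 7.26, 7.98 and 6.81, and ES25 and ES26 at 7.19 and 7.61. By gene value ES1 to ES12 did not overlap any other array, and ES13 and ES14 were the highest. The label means were 5.35 ± 2.36 (SD, n = 14) and 7.93 ± 0.93 (SD, n = 12), a difference of -2.57 ± 0.69 (SE; limma adjusted p = 0.00332). The median over all 5 probe sets gave a difference of -1.20, and the median over the dimmer probe sets one of -0.37 that did not pass (limma adjusted p = 0.162).

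Msx1 was 10.08 in ES13, 9.87 in ES14, and 9.39, 8.99, 8.23, 8.59, 8.43 and 8.49 in ES15 to ES20. All 8 of these arrays were above the other 18, which included ES1 to ES12 at 4.83 to 7.04 (median 6.16), ES21 to ES24 at 6.70, 6.54, 6.27 and 6.71, and ES25 and ES26 at 6.94 and 6.63. Unlike Msx2, Msx1 in ES1 to ES12 overlapped with ES21 to ES26. With genes of 3 probe sets included, an alternative chosen after seeing the data, its difference between labels was -0.99 and did not pass (limma adjusted p = 0.110).

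The 3 feedback inhibitors were all lower in 129S2/SvPas. Smad6, which acts mainly on BMP signalling, lay between 6.92 and 7.65 in ES1 to ES12, with a median of 7.14. It was 9.59 in ES13, 9.43 in ES14, and 9.19, 9.27, 9.69, 9.89, 9.66 and 10.07 in ES15 to ES20, and it was 7.63, 7.30, 7.51 and 7.33 in ES21 to ES24 and 7.71 and 8.50 in ES25 and ES26. By gene value, ES13 to ES20 were therefore above all other arrays, and ES1 to ES12 overlapped with ES21 to ES24. The overlap was not shared by all brighter Smad6 probe sets. Probe sets 4676110 and 4918794 moved little, with run medians spanning 0.75 and 0.78, and overlapped there. In ES1 to ES12 the brighter 4850120, 5248615 and 5400414 reached at most 6.21, 8.26 and 8.02. In ES21 to ES24 they were at least 6.73, 8.56 and 8.05. The label means were 7.53 ± 0.87 (SD, n = 14) and 8.64 ± 1.09 (SD, n = 12), with a difference of -1.12 ± 0.37 (SE; limma adjusted p = 0.0148).

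Bambi had the same order as Smad6 at its upper end. It was 10.58 in ES13, 11.00 in ES14, and 10.96, 10.81, 10.60, 11.06, 10.97 and 10.78 in ES15 to ES20. It was 8.64, 8.83, 8.83 and 8.58 in ES21 to ES24, 8.88 in ES25, 9.09 in ES26, and 7.42 to 8.40 in ES1 to ES12 (median 7.91). By gene value these 3 levels did not overlap. Of the brighter Bambi probe sets, 4533125 was at 8.58 to 10.11 in ES1 to ES12 and overlapped with ES21 to ES24 (at most 9.52). Probe set 5492251 also overlapped, with 7.36 to 8.36 against 8.16 to 8.33. The brighter 4512036 and 4938740 did not overlap there. The label means were 8.28 ± 1.10 (SD, n = 14) and 9.84 ± 1.09 (SD, n = 12), and the difference was -1.55 ± 0.41 (SE; limma adjusted p = 0.00298).

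Smad7, which inhibits both BMP and TGF-beta signalling, was by gene value also lower in ES1 to ES12 than in every other array. It lay between 8.17 and 8.94 in ES1 to ES12 (median 8.51), and was 10.11 in ES13, 10.01 in ES14, and 9.48, 9.30, 10.57, 10.48, 10.52 and 10.85 in ES15 to ES20. It was 9.75, 9.63, 10.26 and 9.64 in ES21 to ES24, 9.43 in ES25 and 9.95 in ES26. ES13 and ES14 lay above ES25 and ES26, and every other pair of runs after ES12 overlapped. The label means were 8.74 ± 0.59 (SD, n = 14) and 9.99 ± 0.52 (SD, n = 12), and the difference was -1.25 ± 0.21 (SE; limma adjusted p = 3.26e-05).

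The direction of 5 of the 6 lower members turned when ES1 to ES12 were left out. By gene value, 5 of the 9 tested members were lower in every array of ES1 to ES12 than in any of ES13 to ES26. They were Bmp4, Id3, Msx2, Smad7 and Bambi, and 0 were higher in this way. Of all genes tested, 6.42% were lower and 7.76% higher in this way. Among their brighter probe sets, Bmp4 5470312, Msx2 4307049, Smad7 4382919 and Bambi 4533125 and 5492251 overlapped there. The other brighter probe sets of these 5 genes did not. Without ES1 to ES12, limma called 0 of 9 members in either direction (0 lower and 2 higher, Bmp4 and Msx2, at an unadjusted p below 0.05), with 2 arrays left for 129S2/SvPas, and it called 1 of 18341 genes (0.00545% higher and 0% lower). The differences of Bmp4, Msx2, Smad6, Smad7 and Bambi then turned positive, at 1.50, 2.91, 0.87, 0.07 and 0.95, and that of Id3 was -0.37. The granulocyte and monocyte markers given above separated the same arrays, and their part in these differences was not tested.

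The runs after ES12 also differed among themselves. ES13 and ES14, ES15 to ES20, and ES25 and ES26 were each set against ES21 to ES24, which these comparisons share. In ES13 and ES14, 4 of 9 tested members (Bmp4, Msx2, Smad6 and Bambi) lay above all of ES21 to ES24 and 1 (Id4) below; over all genes the shares were 11.4% and 20.3%. In ES15 to ES20, 2 (Smad6 and Bambi) lay above and 1 (Id4) below, against 11.8% and 12.7% of all genes. In ES25 and ES26, 4 (Id1, Id3, Smad6 and Bambi) lay above and 1 (Bmp4) below, against 18% and 16.1%. Between ES13 and ES14 and ES15 to ES20, 2 members (Bmp4 and Msx2) were higher and 1 (Id2) lower, against 9.25% and 17.8% of all genes.

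Several marker lists differed between the same runs. The mean of 6 primitive streak and mesoderm markers was 8.71 and 9.94 in ES13 and ES14, 7.73 to 7.97 in ES15 to ES20, 6.46 to 6.95 in ES21 to ES24, 6.02 and 6.19 in ES25 and ES26, and 5.44 to 5.85 in ES1 to ES12. The list did not move as a whole in ES15 to ES20. Kdr and Pdgfra, receptors of early mesoderm, had higher medians there than in ES21 to ES24 (10.93 against 5.89 and 10.01 against 5.87), while the other 4 markers had lower ones, T at 8.10 against 9.37, Eomes at 6.49 against 7.37, Mixl1 at 5.91 against 6.12 and Mesp1 at 5.63 against 5.85. The mean of 6 endothelial markers was 7.96 to 9.04 in ES15 to ES20, 6.83 and 7.55 in ES13 and ES14, and 5.22 to 6.71 elsewhere. Pecam1 had a higher median in ES1 to ES12 (11.09) than in ES15 to ES20 (9.78). Every other marker of this list had its highest run median in ES15 to ES20, Sox17 by little (6.48 against 6.27 in ES13 and ES14). The mean of 5 measured primitive erythroid markers was 9.67 to 11.94 in ES15 to ES20, 7.08 and 9.88 in ES13 and ES14, and 5.20 to 6.23 elsewhere. The mean of 7 fibroblast and mesenchyme markers was 9.54 and 9.96 in ES25 and ES26, 8.69 to 10.48 in ES15 to ES20, 7.75 to 8.94 in ES21 to ES24, 7.85 and 8.17 in ES13 and ES14, and 6.32 to 7.01 in ES1 to ES12. Col1a1, Col3a1 and Postn had lower medians in ES25 and ES26 than in ES15 to ES20 (10.56 against 12.45, 9.95 against 11.52 and 8.00 against 11.89). Col1a2, Prrx1, Twist2 and Thy1 had higher ones in ES25 and ES26. Of these markers 6 were lower in every array of ES1 to ES12 than in any other. Thy1 went the other way, with 8.33 to 11.89 in ES1 to ES12 and at most 7.32 elsewhere. The mean of 5 visceral endoderm markers lay between 6.24 and 8.20 in ES15 to ES20 and between 5.59 and 6.09 elsewhere. Afp, Ttr and Apoa1 had their highest run medians in ES15 to ES20. Amn had its lowest there (7.22), and Cubn was at 5.81 there against 6.01 in ES25 and ES26. The part of these cell types in the members' values was not tested.

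Probe sets of the other members departed from their gene value in a few places. Bmp4 probe set 5470312 had run medians spanning 0.62 while the medians of the gene value ran from 4.13 to 9.64, and it lay between 6.69 and 7.95 over all 26 arrays. Bmp4 did not pass the filter on dim genes, and without the filters this probe set was higher relative to its gene by 3.10 (limma treat adjusted p = 0.0367). That fit called 1313 of 299033 probe sets higher and 1101 lower. The probe set was named for its wide departure in these same arrays. Its p-value is therefore a description and no independent support. Smad6 probe set 5191264 had run medians spanning 0.69, and the Smad6 probe set 4850120, named after its values were seen, had run medians spanning 4.88, wider than the gene value. Bambi probe set 4968080 spanned 0.66, Smad7 probe set 4382919 spanned 0.46 and Id1 probe set 4533372 spanned 0.98. Relative to the gene value of the same array, and among probe sets above the median probe set, the run medians of Msx2 probe set 4735868 spanned 3.77, those of Msx1 probe set 4993066 spanned 1.18, those of Id3 probe set 4710686 spanned 1.30 and those of Id2 probe set 4556254 spanned 0.88. The Msx2 probe set 4494517, which lay below the median probe set, departed more, with a span of 5.78 relative to the gene. Over all members 37 of 66 probe sets had run medians spanning over 2 and 10 had run medians spanning under 1. The same counts were not made over all probe sets, so these do not set the members apart.

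The other genes of the pathway were taken from a list of 50 ligands, receptors, Smads and their regulators, secreted inhibitors, further targets and E proteins. Of the 47 tested, 35 were lower in 129S2/SvPas, 1 was higher and 11 did not pass, against 22.1% lower and 21.1% higher among all genes, and the median difference was -0.89. Bmp6 had no probe set with its symbol alone, and Nog, at 3 probe sets, was not tested. In ES1 to ES12, 13 of 47 were below all other arrays and 0 above, against 6.42% and 7.76% of all genes. Without ES1 to ES12, 20 of the 35 lower genes had a positive difference and 15 a negative one, among them Crim1 at -1.50, Gdf3 at -1.29, Smad9 at -0.70 and Rgmb at -0.68. That fit, with 2 arrays left for 129S2/SvPas, called 0 of 47 lower and 0 higher (1 and 9 at an unadjusted p below 0.05) and 1 of 18341 genes, so its lost calls say nothing about stability.

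**Figure D3:**
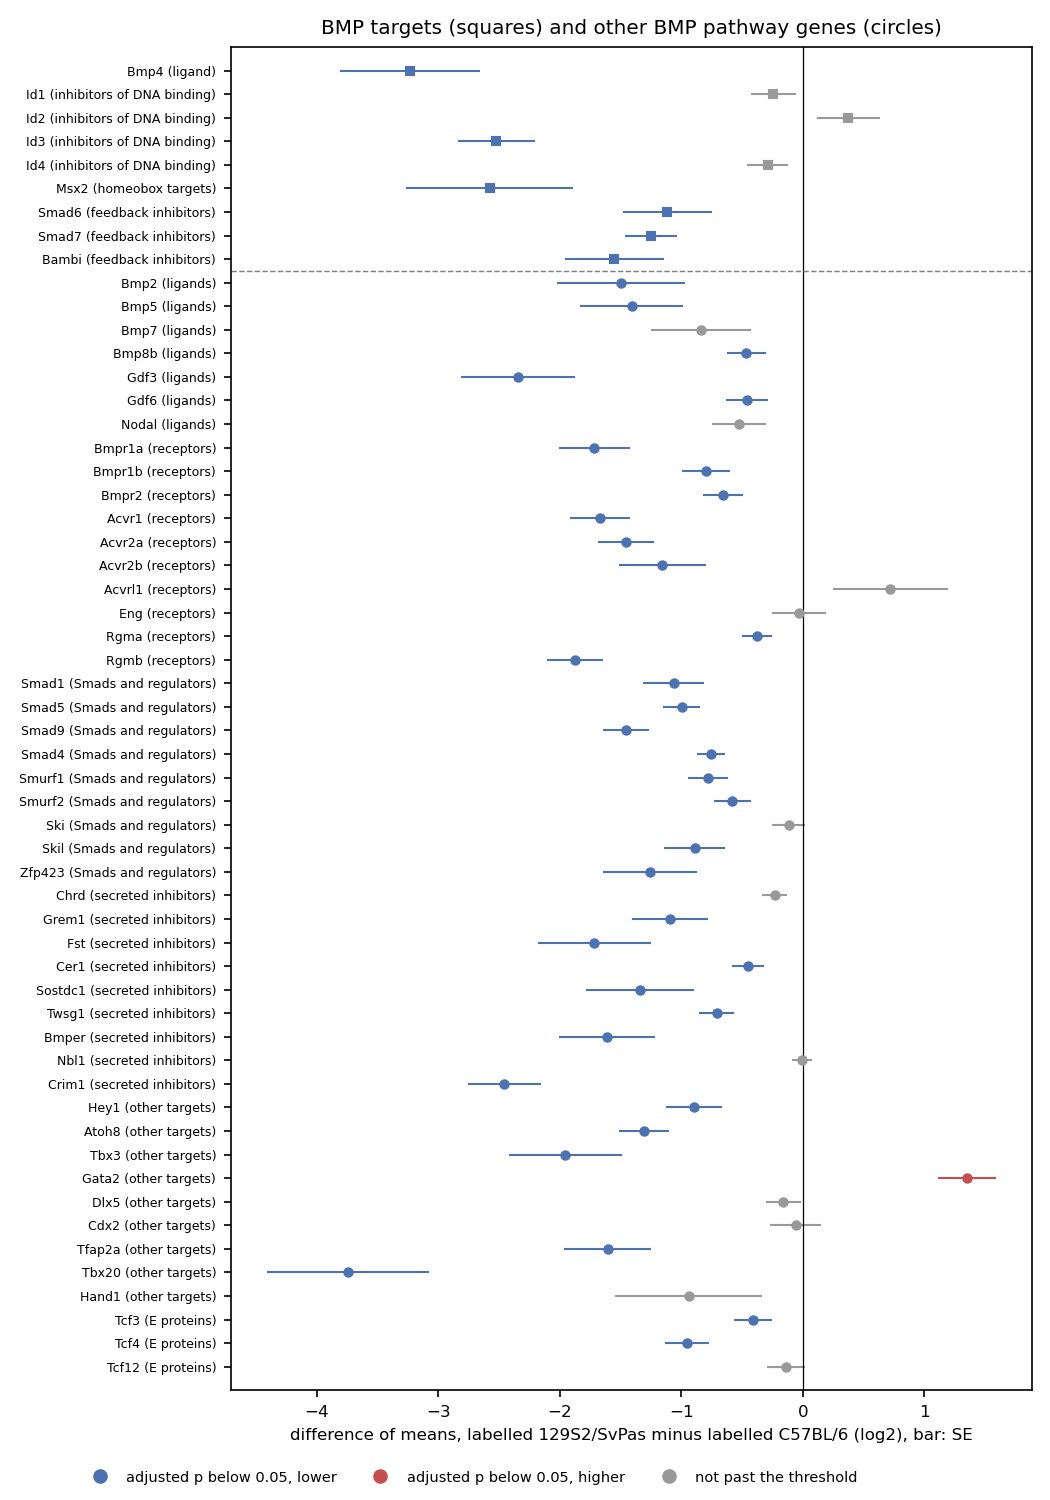
Difference of mean gene values (log2, x axis), arrays labelled 129S2/SvPas minus arrays labelled C57BL/6, for the 9 tested members (squares) and the 47 tested pathway genes (circles), with their role in brackets; bars are SE and colours give the limma call. Bmp4 at -3.23 and Tbx20 at -3.74 lie farthest to the left, and Gata2 at 1.35 is the gene called higher.

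Among the ligands 5 of 7 were lower. Gdf3, a TGF-beta family ligand of pluripotent cells, differed by -2.34 ± 0.47 (SE; limma adjusted p = 0.000218) and lay at 9.13 to 10.53 in ES21 to ES24 and at most 7.06 elsewhere. Bmp2, the closest relative of Bmp4, differed by -1.49 ± 0.53 (SE; limma adjusted p = 0.0226) and was 7.97 to 8.78 in ES13 to ES20 against 4.40 to 5.92 in the other arrays. Bmp2 thus shared its high arrays with Msx1, Smad6 and Bambi, where Bmp4 was high in ES21 to ES26 too.

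Among receptors and co-receptors 8 of 10 were lower. The BMP co-receptor Rgmb differed by -1.87 ± 0.23 (SE; limma adjusted p = 5.40e-07) and the type I receptor Bmpr1a by -1.72 ± 0.29 (SE; limma adjusted p = 3.23e-05). Bmpr1a lay between 10.04 and 10.72 in all 14 arrays ES13 to ES26 and between 6.74 and 9.51 in ES1 to ES12. Among Smads and their regulators 8 of 9 were lower, led by the signal Smad Smad9 at -1.46 ± 0.19 (SE; limma adjusted p = 8.98e-07) and Zfp423, a zinc finger partner of BMP Smads, at -1.26 ± 0.39 (SE; limma adjusted p = 0.00952).

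Secreted inhibitors were lower in 7 of 9 cases. Crim1, a membrane protein that binds BMPs, differed by -2.46 ± 0.30 (SE; limma adjusted p = 4.47e-07) and had values of 6.40 to 7.62 in ES1 to ES12, 8.05 to 10.47 in ES13 to ES24, and 11.20 and 11.38 in ES25 and ES26. Fst, the activin and BMP antagonist follistatin, differed by -1.72 ± 0.46 (SE; limma adjusted p = 0.00378); with the median over all its probe sets the difference was -1.12 and did not pass (limma adjusted p = 0.0510).

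Of 9 further targets 5 were lower and 1 was higher. Tbx20, a T-box factor of heart and extraembryonic mesoderm, differed by -3.74 ± 0.66 (SE; limma adjusted p = 5.28e-05), with 4.53 to 5.49 in ES1 to ES12 and 10.25 to 11.20 in ES13 to ES20. Tbx3, a T-box factor of pluripotent cells and mesoderm, differed by -1.95 ± 0.46 (SE; limma adjusted p = 0.00123). Gata2, a transcription factor of blood progenitors and mast cells, was higher by 1.35 (limma adjusted p = 4.31e-05), with 7.70 to 10.27 in ES1 to ES12 and 7.05 to 8.71 in the other arrays. Of the E proteins, which Id proteins bind, 2 of 3 were lower, Tcf4 by -0.95 ± 0.18 (SE; limma adjusted p = 0.000114) and Tcf3 by -0.41 ± 0.16 (SE; limma adjusted p = 0.0368). Tcf3 lost its call in 13 of 26 fits that left out 1 array, with differences between -0.48 and -0.35.

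**Figure D4:**
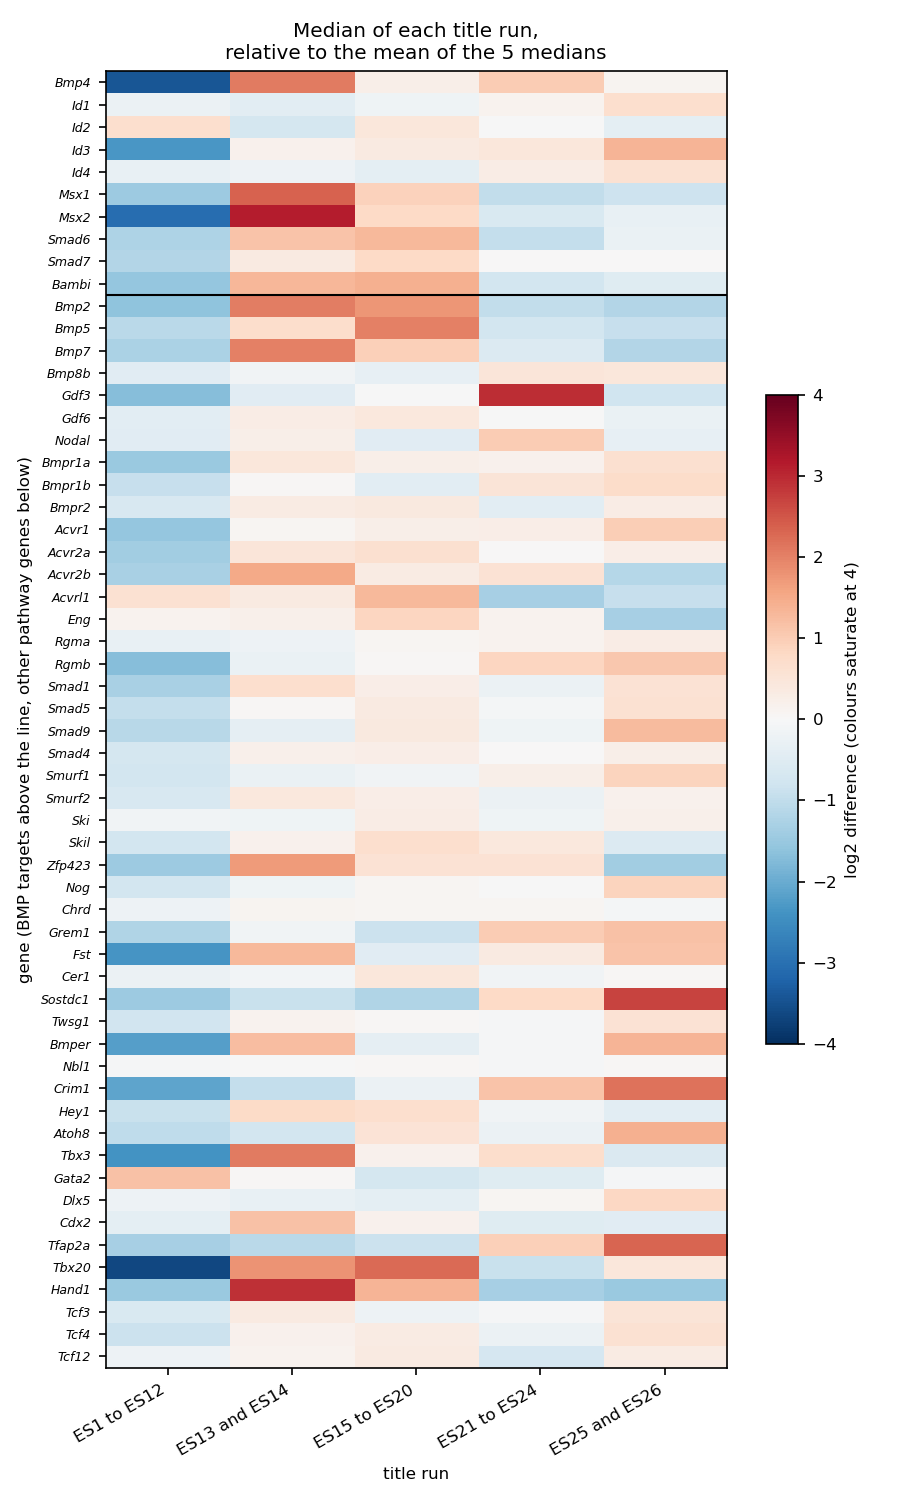
Median gene value of each title run (columns) for the 10 members (above the line) and the pathway genes with a value (below it), as log2 difference from the mean of that gene's 5 run medians; blue is lower and red higher. ES1 to ES12 are the lowest run for Bmp4 (median 4.13), Id3 (6.53) and Msx2 (4.65), and Msx1, Msx2, Smad6 and Bambi are higher in ES13 to ES20 than in ES21 to ES24 by their run medians.

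Members were compared with one another and with all 18341 tested genes by the root mean square difference between profiles. Each profile was centred on its own mean over the 26 arrays. A smaller value is a closer profile in log2 units, and it is also small where both genes move little. Arrays share their runs and samples, so this is a description. The smallest values between members were those of Smad6 and Bambi (0.42 log2 units), Msx1 and Bambi (0.53) and Id1 and Id4 (0.54). Id2 and Msx2 were farthest apart (2.66). The value for Id1 and Id4 was above the SD of either gene over the 26 arrays (0.48 and 0.45). By these gene values both moved little, so this small value does not by itself show whether they moved together. Of the 8 Id4 probe sets, 5 had run medians spanning over 2. The nearest tested genes to Bmp4 were Epb41l5 (0.59) and Nectin3 (0.60), to Id1 Sync (0.31) and Flna (0.33), to Id2 Adap2 (0.32) and 4933433G15Rik (0.36), and to Id3 Mast4 (0.40) and Syde1 (0.42). Those nearest to the Id4 gene value were Osr2 (0.23) and Klhl30 (0.24), whereas its dimmer probe sets were nearest to Cyp1b1 (0.40), a monooxygenase, and Bgn (0.43), which encodes a matrix proteoglycan. Nearest to Msx1 were Bmp7 (0.46), itself a BMP ligand, and Hand1 (0.48), a factor of heart and extraembryonic mesoderm; to Msx2 they were Prtg (0.49) and Morc4 (0.52). Smad6 was nearest to Hmcn1 (0.34) and Efnb3 (0.35), Smad7 to Adarb1 (0.29) and Ptms (0.32), and Bambi to Tgfb2 (0.33), which encodes a TGF-beta ligand, and Cand2 (0.35).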

How the data were processed

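RNA from 26 samples was measured with 1 array each. Per the labels, the authors made the deposited log2 values with RMA (background correction, normalization, summary per probe set) in Affymetrix Expression Console, as an extended-exon run. The log base was taken from RMA convention and the range of 0.831 to 15.64. RMA sets all arrays to a common distribution, which can hide a change shared by all genes. Software version and genome build are not given in the sources used here; probe set coordinates are left out. It covered 631748 probe sets, 0 values were missing, and detection calls were not used, so a low value was not told apart from background. Array medians lay between 5.32 and 5.51, 0 pairs of arrays were identical, and precision is limited by how many arrays there are.

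Symbols came from the platform annotation (21757; 17747 current in RefSeq GRCm38.p6, 3725 updated through a unique synonym, 5 pairs that had swapped names, among them Tcf3, and 280 kept). Strain labels were compared with limma 3.58.1 in R 4.3.3 (lmFit, eBayes with a trend, two-sided, Benjamini-Hochberg over 18341 genes, threshold 0.05), as 129S2/SvPas minus C57BL/6. Probe sets within genes were tested with treat, a minimum difference of 1 and no trend, leaving out genes and probe sets below the respective median. Members, lists, runs and tests were chosen with earlier results of these data known. Named were all members, for each pathway role the 2 called genes that differed most, the 2 nearest profiles per member, all Id4 probe sets and, for each other member, the probe set above the median probe set that departed most. Alternatives covered the gene summary, normalization, variance model, filters, a rank sum test and left-out arrays; a minimum of 3 probe sets and a summary by the dimmer probe sets were added after seeing the data. On simulated data with independent arrays, the gene test recovered 52% of 50 genes changed by 0.5 log2 units, 86% at 1, 92% at 2 and 100% at 4, with 9 false calls of 18341, and the probe set test recovered 88% of 100 probe sets changed by 2 and 100% at 4, with 0 false calls of 156023. One listed pathway gene is not reported here.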

Additional observations from a re-analysis of the deposited data

How the results depend on the processing

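The 6 lower members and the count of 0 higher held in each of the 26 fits that left out 1 array, in which 33 to 38 pathway genes were lower and 1 higher. Leaving out ES1 to ES12 left 0 members lower, 0 pathway genes lower and 0 higher, and 0 member probe sets lower within genes. The sign then changed for 6 of 9 members and 27 of 47 pathway genes; of the named genes these were 1.50 for Bmp4, -0.81 for Id2, 2.91 for Msx2, 0.87 for Smad6, 0.073 for Smad7, 0.95 for Bambi, 1.68 for Bmp2, 0.11 for Bmpr1a, 1.45 for Zfp423, 1.11 for Fst, 0.92 for Tbx20, 1.85 for Tbx3, 0.0028 for Tcf4 and 0.41 for Tcf3; only 2 arrays of 129S2/SvPas remain there, and 1814 genes had an unadjusted p below 0.05. Summarised by the median of all its probe sets, Id1 had a difference that turned to 0.037. With the same summary Id4 was called lower, as given above. With array weights, and without ES13 and ES14, 1 member was higher, which was Id2 at 0.57 in both (limma adjusted p = 0.0338 and 0.0437). Without the dimmer 50% of genes 16 of 24 pathway genes left were lower, against 2077 lower and 2764 higher of all 9170 genes tested. Within genes, 0 member probe sets were lower and 2 higher with the median over all probe sets subtracted, 20 lower and 10 higher with no minimum difference, and 1 higher with no filter. With that median subtracted, 375 of all 156023 probe sets were lower and 592 higher. With no minimum difference 17016 were lower and 19278 higher. With no filter 1101 of 299033 were lower and 1313 higher. Centring arrays on their median gene moved the median difference of all genes to 0.13 and the share of higher calls from 48.9% to 66%; members kept 6 lower and 0 higher. By the median over the dimmer probe sets Id1 was lower by a difference of -0.60 (limma adjusted p = 0.0193). Where a call changed, the cause was not tested. No paired analysis was possible because the labels carry no replicate numbers shared between the strains.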
